A study of Homo sapiens with 12 samples.

Results

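The genes described here are the 44 subunits and regulators of the DNA replication machinery, taken as every row of the 12 expression tables whose gene symbol is on a list of replication proteins. They are 44 of the 27249 genes with an Ensembl identifier and of the 98711 genes listed in all, and each of them was found once. RNA was sequenced from Huh7 and HepG2, established human liver cancer cell lines, to compare cells resistant to the tyrosine kinase inhibitor (TKI) sorafenib with the parental HCC cells they came from. Each of the 4 groups (resistant Huh7, parental Huh7, resistant HepG2, parental HepG2) holds 3 samples, and the labels give all of them as hepatocellular carcinoma cells of genotype WT. Parental cells had treatment and time "None". Resistant cells had treatment Sorafenib over 8 months, with a first dose of 10 μmol, drug-free medium after each exposure and rising doses, so each resistant line is a population of survivors, and the labels name 1 such line per parental line and no cloning step. No label says that samples of a group came from separate cultures, and p-values then measure only the spread between these samples, which may be technical.

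Replication of a chromosome starts at origins, which are bound by the origin recognition complex (ORC1 to ORC6). During G1 phase, ORC, CDC6 and CDT1 load the ring of MCM2 to MCM7, the core of the replicative helicase, and geminin (GMNN) later blocks CDT1 so that no origin is loaded again. At the start of S phase the kinase CDC7 with its activator DBF4 phosphorylates the MCM ring, which then takes up CDC45 and the GINS complex and begins to unwind DNA. Primase and polymerases alpha, delta and epsilon copy the strands, RFC loads the sliding clamp PCNA, RPA covers single-stranded DNA, and FEN1 and LIG1 join the pieces of the lagging strand. Many of these genes are transcribed as cells pass from G1 into S phase under E2F transcription factors, which bind GC-rich sites close to the transcription start.

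Because that control acts at the promoter, the E2F letters TTTCCCGC, TTTCGCGC, TTTGCCGC and TTTGGCGC were looked for on both strands, overlaps allowed, in the RefSeq promoter windows (GRCh38.p14), which run from 250 bases before to 50 bases after each start. A window was found for 38 of the 44 genes, and 19 of these held at least 1 match, against 1090 of 27305 genes with a window (3.99%). The sequences below are read along each gene's own strand with the matches in capitals. MCM6 is shown because it holds overlapping matches in both orientations at 2 places, PCNA as the gene with the highest level, ORC1 as a gene that rose in both lines without a match, and CDC7 and GMNN because they changed in opposite directions in HepG2. For PCNA and ORC1 the stretch ends where the annotated gene begins. For MCM6 it ends at the RefSeq start, which lies a little before the annotated gene. For CDC7 and GMNN, whose matches lie inside the gene as GENCODE release 29 draws it, 30 bases around each match are given.
MCM6, chr2:135876444-135876613, minus strand: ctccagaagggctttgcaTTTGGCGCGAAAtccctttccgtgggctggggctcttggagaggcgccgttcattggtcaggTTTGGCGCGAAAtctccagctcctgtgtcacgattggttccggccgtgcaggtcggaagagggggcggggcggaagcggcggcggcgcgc
PCNA, chr20:5126627-5126782, minus strand: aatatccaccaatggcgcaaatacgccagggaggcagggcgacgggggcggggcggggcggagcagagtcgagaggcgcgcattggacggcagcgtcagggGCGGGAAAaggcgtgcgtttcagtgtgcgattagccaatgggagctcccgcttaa
ORC1, chr1:52404460-52404583, minus strand: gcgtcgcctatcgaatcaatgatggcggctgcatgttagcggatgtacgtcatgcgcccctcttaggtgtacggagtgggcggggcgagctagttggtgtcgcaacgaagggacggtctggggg
CDC7, chr1:91501033-91501062, plus strand: gtgcagttcctTTTCCCGCcccccttcgga
CDC7, chr1:91501067-91501096, plus strand: tccgacctgcgGCGGGAAAgtcgcgcgcct
GMNN, chr6:24775322-24775351, plus strand: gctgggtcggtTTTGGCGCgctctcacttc
A match is a description of these letters and does not show that a factor binds there. The shorter letters CCAAT, searched in the same windows on both strands, were found in 22 of the 38 genes (57.9%) and in 39.7% of all genes with a window.

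The deposited values behave as reads or fragments per kilobase of exon, scaled to sequencing depth (FPKM), and the number of reads behind a sample, calculated back from them, was 12290222 to 19285994. All 12 hepatocyte markers examined, such as ALB, APOA1 and HNF4A, averaged at least 1 FPKM in each of the 4 groups, with sums between 6708 and 10329 FPKM per sample. Markers of other cells stayed low, with sums of 2.3 to 5.4 FPKM for fibroblasts, 2.5 to 6.3 FPKM for leukocytes and 1.2 to 3.7 FPKM for endothelium. Samples of a group correlated at 0.9643 to 0.9856 (Pearson, across genes). The share of summed FPKM that fell on Ensembl genes was 85.5% to 87.7% in resistant and 74.5% to 79.6% in parental Huh7 samples, and 79.3% to 83.4% in resistant and 83.8% to 84.9% in parental HepG2 samples. Its part in the differences below was not tested.

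All 44 genes were expressed in every sample, from 47 reads for RPA2 to 16161 reads for MCM7. PCNA had the highest mean over the 12 samples, 267 FPKM, followed by MCM3 with 166 FPKM and MCM7 with 91.8 FPKM. RPA2, LIG1 and GINS4 had the lowest means, 3.61, 4.25 and 4.30 FPKM. The exons of 19 of the 44 genes overlap those of another gene, on the opposite strand in 16 of them, and as the sources do not say whether strand was used in counting, reads of such pairs cannot be told apart.

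The summed level of the 44 genes was higher in the resistant cells of both lines. It was 1574 ± 30.5 FPKM (SD, n = 3) in resistant against 1164 ± 47.0 FPKM in parental Huh7, and 1309 ± 32.9 FPKM in resistant against 700.2 ± 34.3 FPKM in parental HepG2. Such a sum mostly reflects the abundant genes and does not show that the machinery rose as a whole. In Huh7, MCM2 to MCM7 together went from 358 to 683 FPKM and PCNA from 221 to 277 FPKM. In HepG2 they went from 206 to 409 FPKM and from 175 to 395 FPKM. Each gene was compared between resistant and parental samples by limma's two-sided moderated test on log2(FPKM + 1). Adjustment was by Benjamini-Hochberg over all genes tested, and a gene is said to rise or fall where its adjusted p was under 0.05. Differences are on this log2 scale, which understates the change of genes with low values, and are given ± SE. The Huh7 differences followed the GC content of the transcripts. For the 44 genes, values with each sample's GC trend taken off therefore stand beside them. They are given where a Huh7 difference turned, gained or lost a call, or moved by over 1.5 times. For HepG2 and for comparisons between lines they are given only in part. In HepG2, 30 of the 44 genes rose (68.2%) and 1 fell, against 11.6% and 8.43% of the 11762 genes tested, and the median difference was 0.84 for the 44 genes and 0.12 for all genes. In Huh7, 19 rose (43.2%) and 9 fell (20.5%), against 32.7% and 37.4% of the 12554 genes tested, with medians of 0.25 and -0.04. All resistant samples lay above all parental ones for 31 genes in HepG2 and below for 1 (24.9% and 15.5% of all genes tested), and for 21 and 10 genes in Huh7 (35.2% and 39.2%). In bulk samples, a larger share of cells in S phase and more RNA of these genes per cell cannot be told apart.

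The lists of genes differed between the lines. In both, 15 genes rose: ORC1, CDT1, all 6 MCM ring subunits, CDC45, GINS2, GINS4, PCNA, RFC2, RPA1 and FEN1. CDC7 fell in both. MCM10, POLD3 and POLE2 fell in Huh7 and rose in HepG2. A further 5 genes fell in Huh7 without passing the test in HepG2 (ORC3, ORC4, ORC5, DBF4 and RFC1), 4 rose in Huh7 without passing it in HepG2 (ORC6, GINS3, POLD2 and RPA2), and 12 rose in HepG2 without passing it in Huh7. ORC2, GINS1, PRIM2 and POLD1 passed it in neither line. For all genes tested, shares are given here for each line separately and not for both lines jointly. In Huh7, 32.7% of all genes tested rose and 37.4% fell, and in HepG2 11.6% rose and 8.43% fell. Whether the joint counts above differ from those of all genes was not tested. With the GC trend taken off, RFC2 and FEN1 were no longer called higher in Huh7 (0.27 and -0.15) nor ORC4, ORC5 and MCM10 lower (-0.13, 0.13 and -0.06), while 10 further genes were called there, among them ORC2, GINS1 and PRIM2 as higher, and POLD1 was called higher in HepG2 (0.35, adjusted p = 0.0483). With a log2 difference beyond 1 also required, 4 genes rose and 2 fell in Huh7 (8.59% and 14.0% of all genes tested), and 12 rose and 1 fell in HepG2 (3.29% and 2.98%).

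**Figure D1:**
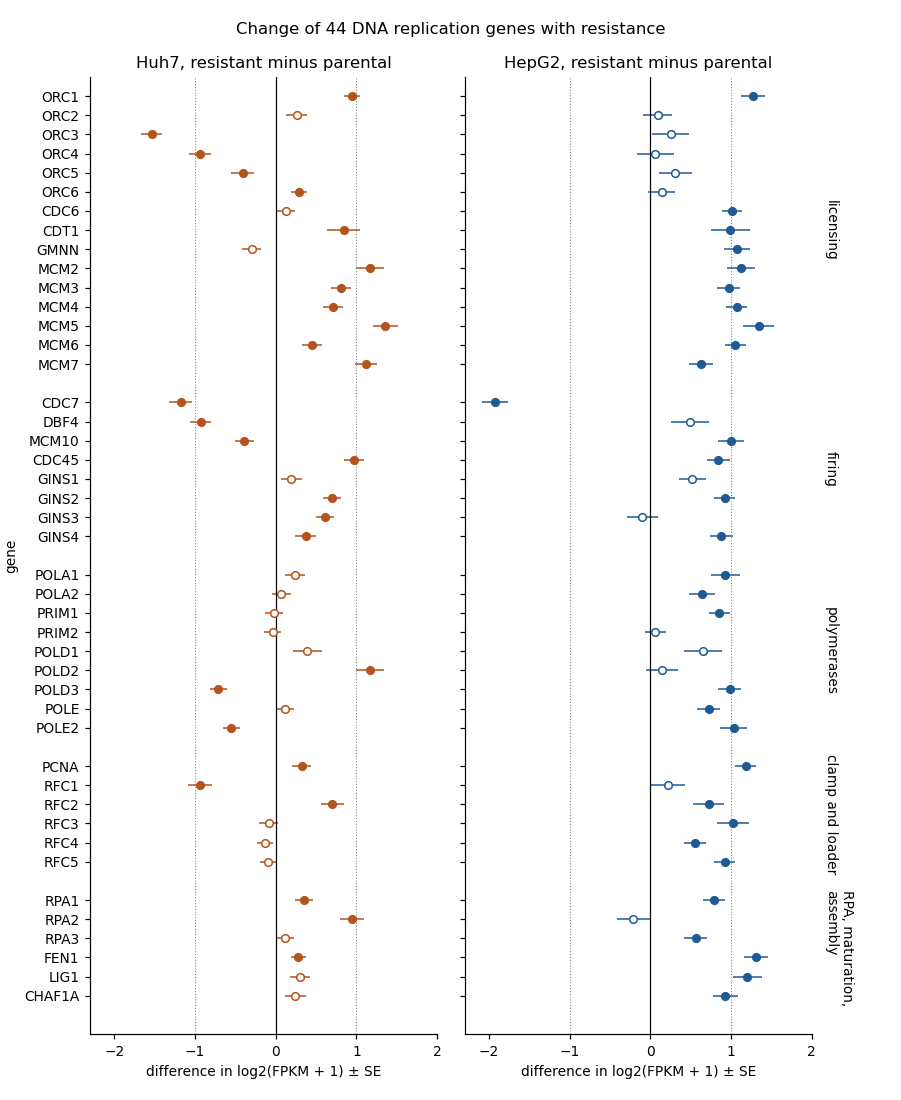
Difference in log2(FPKM + 1) between resistant and parental samples (points) ± SE (bars) for the 44 genes in Huh7 (left) and HepG2 (right), grouped by role. Filled points passed an adjusted p of 0.05 (limma) and dotted lines mark a difference of 1 in either direction. Most HepG2 points lie to the right of 0, up to 1.34 (MCM5), with CDC7 alone far to the left at -1.93, while the Huh7 points run from -1.54 (ORC3) to 1.36 (MCM5).

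Of the origin recognition complex, ORC1, the subunit with ATPase activity that varies most over the cell cycle, rose in both lines. ORC1 read 39.5, 38.0 and 38.2 FPKM in resistant and 21.1, 18.4 and 19.6 FPKM in parental Huh7 samples, a difference of 0.94 ± 0.10 (adjusted p = 9.52e-05). In HepG2 it read 19.9, 27.1 and 25.2 FPKM in resistant and 9.14, 10.0 and 8.88 FPKM in parental samples, a difference of 1.27 ± 0.15 (adjusted p = 0.00158). Every resistant sample lay above every parental one in both lines. None of the other subunits rose in both lines. ORC3, a structural subunit of the core complex, read 11.0, 12.1 and 10.5 FPKM in resistant and 29.8, 34.6 and 40.1 FPKM in parental Huh7 samples. This 3.10-fold lower mean was the largest fall among the 44 genes in Huh7 (-1.54 ± 0.13, adjusted p = 3.78e-05; -0.85 with the GC trend taken off), and the groups did not overlap. In HepG2, where the parental level was already low, ORC3 read 9.94, 6.20 and 7.72 FPKM in resistant and 8.59, 4.61 and 6.57 FPKM in parental samples, which overlapped (difference 0.25 ± 0.23, adjusted p = 0.465).

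ORC4, which like ORC1 and ORC5 belongs to the ATPase family of the complex, read 4.66, 5.89 and 5.15 FPKM in resistant and 9.25, 11.0 and 12.9 FPKM in parental Huh7 samples, with no overlap (-0.94 ± 0.14, adjusted p = 0.00045). Its HepG2 samples overlapped, at 10.4, 6.10 and 6.93 FPKM in resistant and 6.90, 5.85 and 9.43 FPKM in parental cells (0.06 ± 0.23, adjusted p = 0.864). ORC5 fell in Huh7 from a mean of 22.5 to 16.6 FPKM, and ORC6, the most loosely held subunit, rose slightly from 11.3 to 14.0 FPKM. The calls of ORC5 and ORC6 were lost in 3 and 4 of the 6 fits that leave out a library. For ORC5 these were the fits without resistant replicate 1 (highest adjusted p 0.106) or replicate 3 of either group. For ORC6 they were those without resistant replicate 3 (highest adjusted p 0.141), resistant replicate 2 or parental replicate 2 or 3. With the GC trend taken off, ORC4 read -0.13 and was no longer called, ORC5 turned to 0.13, and ORC2, at 0.26 as deposited, was called higher at 0.89 (adjusted p = 9.41e-05), above ORC1 at 0.66. In HepG2, ORC2 to ORC6 all missed the test, with differences from 0.06 (ORC4) to 0.31 (ORC5). The ratio of ORC1 to the mean of ORC2 to ORC6, looked at after the single values had been seen, was 3.13 ± 0.40 in resistant against 1.08 ± 0.17 in parental Huh7 samples, and 2.30 ± 0.74 against 1.00 ± 0.25 in HepG2 (SD, n = 3).

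The loading factors rose together in HepG2 and only in part in Huh7. CDC6, the ATPase that helps ORC load the MCM ring, read 32.3, 31.5 and 34.3 FPKM in resistant and 15.2, 15.6 and 16.3 FPKM in parental HepG2 samples (1.01 ± 0.12, adjusted p = 0.00167). In Huh7 it read 28.7, 34.2 and 31.6 FPKM in resistant and 30.6, 27.2 and 28.3 FPKM in parental samples, and these overlapped (0.13 ± 0.11, adjusted p = 0.313), although CDC6 was called higher with the GC trend taken off (0.25, adjusted p = 0.012) and on centring (0.26, 0.0431). The means of resistant HepG2, resistant Huh7 and parental Huh7 samples were thus 32.7, 31.5 and 28.7 FPKM, and only parental HepG2 samples were low, at 15.7 FPKM. CDT1, the partner of CDC6 in loading, rose in Huh7 from a mean of 10.1 to 18.5 FPKM (0.84 ± 0.21, adjusted p = 0.00739; 0.38 with the GC trend taken off) and in HepG2 from 4.88 to 11.1 FPKM (0.99 ± 0.24, adjusted p = 0.0232). Its spread was wide among resistant samples, 6.90 to 14.5 FPKM in HepG2, where the call was lost without resistant replicate 2 or 3 or parental replicate 1 or 2 (highest adjusted p 0.0814).

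GMNN, the inhibitor of CDT1, read 35.6, 31.8 and 32.5 FPKM in resistant and 15.5, 12.7 and 18.3 FPKM in parental HepG2 samples, a rise of 1.07 ± 0.16 (adjusted p = 0.00352) with no overlap. In Huh7 it read 25.0, 29.6 and 27.4 FPKM in resistant and 31.7, 31.1 and 39.2 FPKM in parental samples (-0.30 ± 0.12, adjusted p = 0.0576). All 3 resistant Huh7 samples were below the parental ones, but the difference missed the test. It passed without resistant replicate 2 (adjusted p = 0.0484) and in limma-voom on reads (-0.38, adjusted p = 0.0169), and was 0.01 with the GC trend taken off. The change of GMNN differed between the lines (interaction -1.37 ± 0.19, adjusted p = 0.000177). The ratio of GMNN to CDT1 was 1.52 ± 0.39 in resistant and 3.67 ± 1.51 in parental Huh7 samples, and 3.36 ± 1.58 and 3.16 ± 0.36 in HepG2 (SD, n = 3), again a quantity chosen after the values had been seen.

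The 6 subunits of the MCM ring rose in both lines. Their summed level was 683 ± 38.9 FPKM in resistant and 358 ± 42.4 FPKM in parental Huh7 samples, and 409 ± 41.1 and 206 ± 15.4 FPKM in HepG2 (SD, n = 3). MCM5, at the gate through which DNA enters the ring, changed most: it read 61.6, 46.9 and 59.2 FPKM in resistant and 24.9, 20.5 and 18.3 FPKM in parental Huh7 samples (1.36 ± 0.15, adjusted p = 0.000119). In HepG2, MCM5 read 29.1, 44.0 and 37.3 FPKM in resistant and 11.4, 14.3 and 15.7 FPKM in parental samples (1.34 ± 0.19, adjusted p = 0.00279). MCM2, its neighbour at that gate and a customary marker of cycling cells, read 88.3, 63.8 and 83.0 FPKM in resistant and 40.6, 33.6 and 28.7 FPKM in parental Huh7 samples (1.17 ± 0.17, adjusted p = 0.000363). In HepG2, MCM2 read 31.5, 42.6 and 40.7 FPKM in resistant and 14.2, 19.4 and 17.7 FPKM in parental samples (1.12 ± 0.17, adjusted p = 0.00436). For both genes the resistant and parental samples were apart in each line, with means 2.24-fold to 2.67-fold higher in resistant cells. The Huh7 differences were 0.83 for MCM5 and 0.63 for MCM2 with the GC trend taken off.

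MCM7 read 194, 156 and 186 FPKM in resistant and 93.4, 83.6 and 69.5 FPKM in parental Huh7 samples (1.12 ± 0.14, adjusted p = 0.000238). Its rise in HepG2 was smaller, from 40.6, 43.3 and 39.8 to 55.6, 75.7 and 63.5 FPKM (0.63 ± 0.15, adjusted p = 0.0226), a call that did not survive leaving out resistant replicate 2 or 3 or parental replicate 1 or 3 (highest adjusted p 0.0981) or centring (0.0553). The order was the other way round for MCM6, which contacts CDT1 during loading. MCM6 read 9.66, 10.8 and 10.3 FPKM in resistant and 4.33, 4.19 and 4.82 FPKM in parental HepG2 samples (1.05 ± 0.13, adjusted p = 0.00174). In Huh7 it read 32.5, 38.2 and 34.5 FPKM in resistant and 27.0, 21.8 and 27.3 FPKM in parental samples (0.45 ± 0.12, adjusted p = 0.00996; 0.0555 without parental replicate 2). Of these subunits, the change differed between the lines by the interaction test for MCM6 only (-0.59 ± 0.16, adjusted p = 0.00715), with MCM4 at 0.0647 and MCM7 at 0.0597. With the GC trend taken off, MCM6 read 0.81 and MCM7 0.58 in Huh7, and the difference between the lines was no longer called for MCM6 (-0.17, adjusted p = 0.342; on centring -0.31, 0.0925). It was called for MCM3 and MCM4 with that trend taken off (-0.36 and -0.37) and for MCM7 on centring (0.77).

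MCM3, the most abundant subunit, read 230.3, 217 and 228 FPKM in resistant and 147, 120.2 and 119.9 FPKM in parental Huh7 samples (0.81 ± 0.12, adjusted p = 0.000504; 0.47 with the GC trend taken off), and 188, 219 and 204 against 97.6, 116 and 98.0 FPKM in HepG2 (0.97 ± 0.14, adjusted p = 0.00349). MCM4, a subunit of the catalytic core with MCM6 and MCM7, read 99.2, 115 and 113 FPKM in resistant and 72.7, 66.9 and 59.5 FPKM in parental Huh7 samples (0.71 ± 0.12, adjusted p = 0.000872), and 52.2, 55.3 and 57.6 against 24.0, 25.0 and 28.2 FPKM in HepG2 (1.07 ± 0.13, adjusted p = 0.00168). Although the ring holds 1 copy of each subunit, their RNA levels per length were far apart. The highest subunit was 6.10 ± 0.39 times the lowest in parental and 6.47 ± 0.71 times in resistant Huh7 samples, and 23.6 ± 3.83 and 19.9 ± 0.43 times in HepG2. MCM3 made up 50.4% ± 2.18 of the sum in parental and 49.9% ± 1.25 in resistant HepG2 samples, while MCM6 made up 2.16% ± 0.25 and 2.51% ± 0.12. In Huh7, MCM5 took 5.91% ± 0.24 of the sum in parental and 8.16% ± 0.72 in resistant samples, and MCM6 7.14% ± 1.16 and 5.16% ± 0.73.

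**Figure D2:**
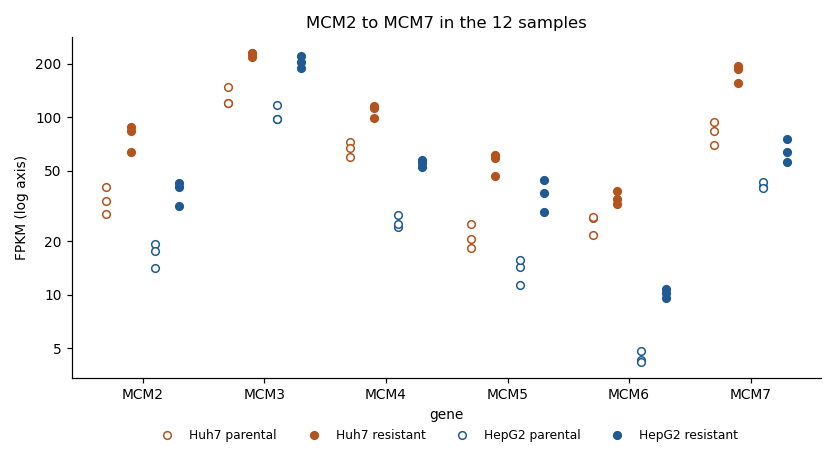
FPKM (log axis) of the 6 subunits of the MCM ring in the 12 samples, 1 point a sample, with open circles for parental and filled circles for resistant samples. In both lines the resistant samples lie above the parental ones for each subunit, and MCM6 in HepG2 is lowest, at 4.19 to 10.8 FPKM.

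The kinase that fires origins went the other way. CDC7, its catalytic subunit, was the only gene among the 44 that fell in both lines, and the only one that fell in HepG2. It read 3.42, 2.51 and 3.25 FPKM in resistant and 13.4, 13.4 and 16.4 FPKM in parental HepG2 samples, a 4.71-fold lower mean (-1.93 ± 0.16, adjusted p = 0.000331). In Huh7, CDC7 read 4.40, 4.84 and 4.47 FPKM in resistant and 9.60, 11.7 and 13.9 FPKM in parental samples, a 2.57-fold lower mean (-1.18 ± 0.14, adjusted p = 0.000145). Neither line showed overlap between its groups, and the fall was larger in HepG2 (interaction 0.74 ± 0.20, adjusted p = 0.00812; 1.55 with the GC trend taken off). Leaving out any single library kept both falls, at -1.31 to -1.06 in Huh7 and -1.99 to -1.82 in HepG2, and with the GC trend taken off they were -0.47 and -2.04.

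DBF4, the subunit that activates CDC7, fell in Huh7 and did not pass the test in HepG2. It read 11.1, 13.3 and 11.9 FPKM in resistant and 20.5, 25.4 and 26.4 FPKM in parental Huh7 samples (-0.93 ± 0.13, adjusted p = 0.00029; -0.30 with the GC trend taken off), and 15.7, 10.9 and 12.9 against 8.68, 6.59 and 12.6 FPKM in HepG2, with overlap (0.49 ± 0.23, adjusted p = 0.162). The difference between the lines was -1.43 ± 0.28 (interaction, adjusted p = 0.00137; -0.70 with the GC trend taken off). The ratio of CDC7 to DBF4, chosen after the values had been seen, was lower in resistant cells of both lines. In Huh7 it was 0.38 ± 0.02 in resistant and 0.49 ± 0.04 in parental samples, and it went from 1.63 ± 0.37 to 0.23 ± 0.02 in HepG2 (SD, n = 3).

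MCM10, a scaffold that helps the assembled helicase start to unwind, fell in Huh7 as deposited and rose in HepG2. It read 9.86, 12.3 and 12.7 FPKM in resistant and 16.0, 14.6 and 16.0 FPKM in parental Huh7 samples (-0.39 ± 0.12, adjusted p = 0.0166), and 12.4, 9.80 and 11.0 against 5.29, 4.06 and 5.82 FPKM in HepG2 (1.00 ± 0.16, adjusted p = 0.00548). Neither pair of groups overlapped, but the Huh7 call was lost without resistant replicate 1 (-0.29, adjusted p = 0.0617), on centring (-0.26, 0.0697) and with the GC trend taken off (-0.06, 0.587). CDC45, the helicase partner of the MCM ring, rose from 7.79 to 16.1 FPKM in Huh7 (0.97 ± 0.12, adjusted p = 0.000221; 0.64 with the GC trend taken off) and from 3.69 to 7.39 FPKM in HepG2 (0.84 ± 0.14, adjusted p = 0.00553). Of the GINS complex, which completes the helicase, GINS2 rose in both lines (0.70 in Huh7, 0.92 in HepG2), GINS1 passed the test in neither (0.19 and 0.52), and GINS3 rose in Huh7 (0.61 ± 0.11, adjusted p = 0.00106) and read -0.10 in HepG2 (adjusted p = 0.725). GINS4 read 3.10, 3.99 and 3.76 FPKM in resistant and 1.52, 1.57 and 1.42 FPKM in parental HepG2 samples (0.88 ± 0.14, adjusted p = 0.0053). In Huh7 it read 7.19, 6.86 and 6.70 FPKM in resistant and 6.31, 4.45 and 4.78 FPKM in parental samples (0.37 ± 0.13, adjusted p = 0.033), a call that was lost without any library but parental replicate 1 (highest adjusted p 0.134). All 4 GINS genes were called higher in Huh7 with the GC trend taken off, GINS1 at 0.70 (adjusted p = 0.00177), GINS2 at 0.53, GINS3 at 0.91 and GINS4 at 0.28.

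Of the 9 polymerase and primase subunits, 6 rose in HepG2, against 11.6% of all genes tested. In Huh7, 1 rose and 2 fell, against 32.7% and 37.4% of all genes tested. In HepG2, POLA1 and POLA2 of polymerase alpha rose by 0.93 and 0.64, PRIM1, the catalytic primase subunit, by 0.85, and POLE, the catalytic subunit of the leading strand polymerase, by 0.72. The call of POLA2 was lost without resistant replicate 2 or 3 or parental replicate 1 or 3 (highest adjusted p 0.0982), and that of POLE without resistant replicate 3 (0.062). None of these 4 passed the test in Huh7 as deposited, where they lay between -0.02 and 0.24. With the GC trend taken off all 4 did, POLA1 (0.61, adjusted p = 0.000667) and PRIM1 (0.56, 0.000207) as higher and POLA2 (-0.39, 0.00234) and POLE (-0.39, 0.00103) as lower. PRIM2, the large primase subunit, averaged 9.85 FPKM in resistant against 10.2 FPKM in parental Huh7 (0.45 with the GC trend taken off, adjusted p = 0.000697), and 10.0 against 9.59 FPKM in HepG2. POLD1, the catalytic subunit of polymerase delta, passed the test in neither line (0.39 ± 0.18 in Huh7, 0.65 ± 0.24 in HepG2), and with the GC trend taken off it read -0.07 in Huh7.

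The accessory subunits POLD2 and POLD3 moved in opposite directions within Huh7. POLD2, which links the delta subunits, read 51.6, 39.6 and 54.1 FPKM in resistant and 25.1, 20.6 and 17.3 FPKM in parental Huh7 samples (1.17 ± 0.17, adjusted p = 0.000365; 0.63 with the GC trend taken off), and in HepG2 19.5, 32.7 and 27.5 against 22.8, 27.3 and 21.2 FPKM, with overlap (0.14 ± 0.20, adjusted p = 0.66). POLD3, the subunit that binds PCNA, read 5.43, 5.77 and 6.03 FPKM in resistant and 9.41, 9.98 and 10.7 FPKM in parental Huh7 samples (-0.71 ± 0.10, adjusted p = 0.000382; -0.35 with the GC trend taken off). In HepG2, POLD3 read 8.97, 7.72 and 8.26 FPKM in resistant and 3.36, 3.69 and 4.08 FPKM in parental samples (0.98 ± 0.14, adjusted p = 0.00269), so that it was lower in every resistant Huh7 sample and higher in every resistant HepG2 sample. The ratio of POLD3 to POLD2 was 0.12 ± 0.02 in resistant and 0.49 ± 0.12 in parental Huh7, and 0.33 ± 0.12 and 0.16 ± 0.03 in HepG2 (SD, n = 3). POLE2, the second subunit of polymerase epsilon, showed the same opposition, with 9.06, 10.8 and 9.24 FPKM in resistant and 13.8, 15.2 and 15.0 FPKM in parental Huh7 samples (-0.55 ± 0.11, adjusted p = 0.00186; -0.25 with the GC trend taken off) and 17.3, 12.7 and 14.2 against 6.60, 5.59 and 8.03 FPKM in HepG2 (1.03 ± 0.17, adjusted p = 0.00631). The interaction was -1.69 ± 0.14 for POLD3 (adjusted p = 5.11e-06) and -1.58 ± 0.20 for POLE2 (adjusted p = 8.25e-05).

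PCNA, the sliding clamp, read 397, 386 and 403 FPKM in resistant and 167, 171 and 186 FPKM in parental HepG2 samples, a rise of 1.18 ± 0.13 (adjusted p = 0.00108). In Huh7 it read 249, 299.9 and 281 FPKM in resistant and 226, 219 and 219 FPKM in parental samples (0.32 ± 0.12, adjusted p = 0.0386). Resistant samples were above parental ones in both lines, but the Huh7 call held in only 1 of the 6 fits that leave out a library (without resistant replicate 1; highest adjusted p 0.143 without resistant replicate 3) and was lost without the filter on low values (0.0852) and in limma-voom on reads (0.066). The change was smaller in Huh7 (interaction -0.86 ± 0.14, adjusted p = 0.000452). RFC1, the large subunit of the clamp loader, read 5.85, 6.32 and 6.08 FPKM in resistant and 10.8, 11.4 and 16.1 FPKM in parental Huh7 samples (-0.94 ± 0.15, adjusted p = 0.000663; -0.46 with the GC trend taken off), and 12.5, 8.52 and 8.34 against 9.34, 6.31 and 9.15 FPKM in HepG2, with overlap (0.22 ± 0.21, adjusted p = 0.477).

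The small loader subunits RFC2 to RFC5, which are shared with other clamp loaders, all rose in HepG2, by 0.55 (RFC4) to 1.02 (RFC3). RFC3 read 38.5, 26.1 and 28.9 FPKM in resistant and 15.3, 11.8 and 17.4 FPKM in parental HepG2 samples (adjusted p = 0.01), and 34.2, 40.5 and 34.7 against 36.0, 37.3 and 43.3 FPKM in Huh7, with overlap (-0.09 ± 0.12, adjusted p = 0.521; 0.63 with the GC trend taken off, adjusted p = 0.000142). RFC5 read 14.2, 14.4 and 14.9 FPKM in resistant and 6.99, 8.06 and 6.59 FPKM in parental HepG2 samples (0.92 ± 0.13, adjusted p = 0.00314), and 15.0, 17.3 and 15.6 against 18.0, 17.3 and 16.2 FPKM in Huh7 (-0.10 ± 0.10, adjusted p = 0.404; 0.12 with the GC trend taken off). In Huh7, RFC2 alone rose among them as deposited (0.70 ± 0.14, adjusted p = 0.00258), and with the GC trend taken off it read 0.27 and missed the test (adjusted p = 0.0633). The HepG2 calls of RFC2 and RFC4 were lost in 4 of the 6 fits that leave out a library, among them those without resistant replicate 3 and parental replicates 1 and 3, with highest adjusted p of 0.116 and 0.131. The fourth was without resistant replicate 2 for RFC2 and resistant replicate 1 for RFC4.

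The single-strand binding complex RPA was split as well. RPA2, its middle subunit and a target of checkpoint kinases, read 6.42, 6.47 and 8.08 FPKM in resistant and 3.75, 3.44 and 2.39 FPKM in parental Huh7 samples (0.94 ± 0.15, adjusted p = 0.000787), and 1.75, 2.19 and 1.64 against 1.77, 3.38 and 1.98 FPKM in HepG2, with overlap (-0.21 ± 0.20, adjusted p = 0.472). RPA1, the large subunit, rose in both lines, by 0.35 in Huh7 and 0.79 in HepG2. RPA3 rose in HepG2 by 0.56 (Huh7 0.11, adjusted p = 0.368, and 0.20 with the GC trend taken off). The Huh7 call of RPA1 was lost without resistant replicate 3 or parental replicate 2 or 3 (highest adjusted p 0.0799), its HepG2 call without resistant replicate 3 (0.0506), and the call of RPA3 without resistant replicate 1 or 3 or parental replicate 2 (0.13).

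Among the maturation factors, FEN1, the flap endonuclease, read 11.8, 13.5 and 11.8 FPKM in resistant and 3.66, 5.02 and 4.57 FPKM in parental HepG2 samples (1.31 ± 0.15, adjusted p = 0.00126). In Huh7 it read 34.4, 33.8 and 34.8 FPKM in resistant and 29.0, 27.0 and 27.9 FPKM in parental samples (0.28 ± 0.09, adjusted p = 0.0224), a small rise that was lost without resistant replicate 1 or 3 or parental replicate 2 (highest adjusted p 0.12) and turned to -0.15 with the GC trend taken off. LIG1, which seals the nicks, read 4.01, 6.40 and 6.42 FPKM in resistant and 1.75, 1.78 and 1.98 FPKM in parental HepG2 samples, a 3.05-fold higher mean and the largest such ratio among the 44 genes in HepG2 (1.20 ± 0.18, adjusted p = 0.00408). In Huh7, LIG1 read 5.28, 4.71 and 6.15 FPKM in resistant and 4.47, 4.0 and 4.06 FPKM in parental samples, just short of the threshold (0.30 ± 0.12, adjusted p = 0.0503; -0.22 with the GC trend taken off). It was called higher there in 7 of the alternatives, among them centring (0.43, adjusted p = 0.0116). With the GC trend taken off and a replicate block it was called lower (-0.22, adjusted p = 0.0484). CHAF1A, the large subunit of the assembly factor that places histones on new DNA, rose in HepG2 (0.93 ± 0.15, adjusted p = 0.00539) and read 0.24 ± 0.13 in Huh7 (adjusted p = 0.113), where it was called lower with the GC trend taken off (-0.29, adjusted p = 0.00963) and higher on centring (0.38, 0.0237).

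**Figure D3:**
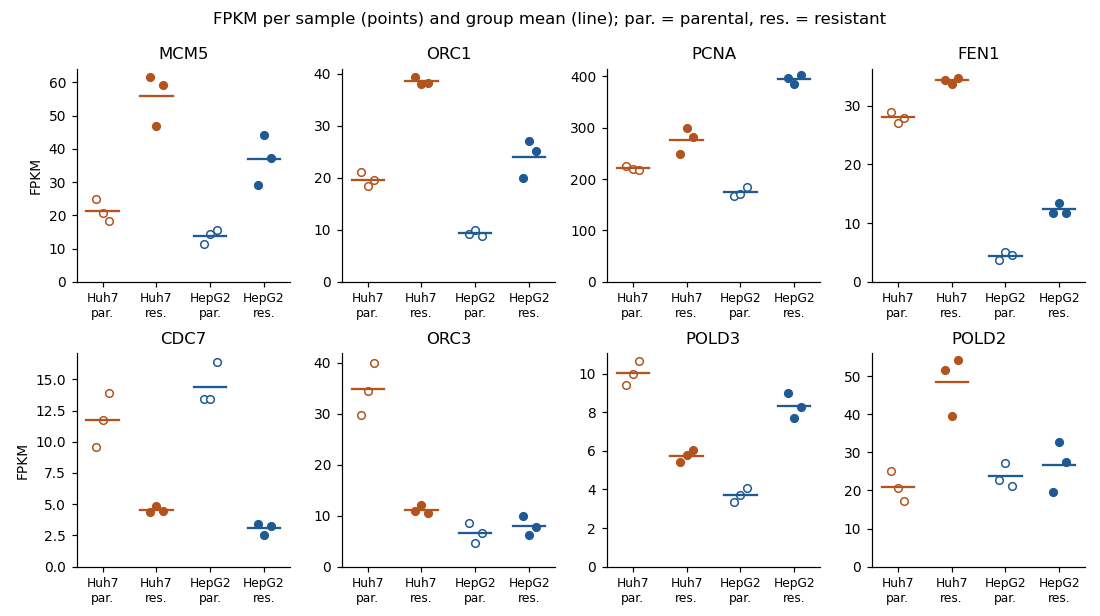
FPKM of 8 genes in each of the 12 samples (points), with the group mean (line), for parental (open) and resistant (filled) cells of Huh7 (brown) and HepG2 (blue). MCM5, ORC1 and PCNA lie higher in resistant cells of both lines and CDC7 lower, POLD3 is lower in resistant Huh7 and higher in resistant HepG2, and ORC3 and POLD2 separate the groups in Huh7 while their HepG2 groups overlap. FEN1 is also higher in resistant cells of both lines as plotted, but its Huh7 difference turned to -0.15 with the GC trend taken off.

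The lines differed before resistance. In a fit of all 12 samples, 37 of the 44 genes were higher in parental Huh7 than in parental HepG2 and 1, GINS3, was lower (-0.57), against 39.8% and 27.4% of the 13800 genes tested. These became 33 higher and 4 lower (ORC2, CDC7, GINS3 and PRIM2) with the GC trend taken off, against 4860 and 4863 of 13791 genes tested. FEN1 stood out with a mean of 28.0 FPKM in parental Huh7 and 4.42 FPKM in parental HepG2 (2.43 ± 0.11, adjusted p = 3.21e-09), followed by MCM6 with 25.4 and 4.44 FPKM (2.27 ± 0.11, adjusted p = 7.9e-09) and ORC3 with 34.8 and 6.59 FPKM (2.26 ± 0.20, adjusted p = 1.39e-06). Among resistant cells, 23 genes were higher in Huh7 and 4 were lower (RFC1, POLD3, POLE2 and PCNA), against 31.7% and 32.4% of all genes tested. The median difference between the lines was 0.89 among parental and 0.47 among resistant samples for the 44 genes, and 0.18 and -0.03 for all genes. PCNA was higher in Huh7 among parental cells (0.34, adjusted p = 0.00985; 0.15 and not called with the GC trend taken off or on centring) and higher in HepG2 among resistant cells (-0.52, adjusted p = 0.000789).

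The resistance change itself differed between the lines for 29 of the 44 genes (65.9%), against 56.3% of all genes tested, and the comparison shares its samples with those above. The change was lower in Huh7 than in HepG2 for 25 genes and higher for CDC7, GINS3, POLD2 and RPA2, against 33.2% and 23.1% of all genes, with a median of -0.54 for the 44 genes and -0.15 for all genes. The 4 higher and 21 of the 25 lower calls held whichever single library was left out. The other 4 were RPA1, RPA3, GINS4 and ORC5, whose highest adjusted p were 0.0665, 0.0586, 0.0606 and 0.0912. Over all genes, 41.0% of the calls were higher in Huh7, 58.2% when samples were centred on the median gene and 52.6% with the GC trend taken off. Among the 44 genes, 16 were lower and 6 higher under centring, and 23 lower and 6 higher with the GC trend taken off, when ORC4, ORC5, MCM6, POLA1, PRIM1 and RPA3 were no longer called. Newly called then were ORC1 (-0.48), MCM3 (-0.36), MCM4 (-0.37) and POLD1 (-0.41) as lower and ORC2 (0.89) and PRIM2 (0.47) as higher. Over all genes, 3295 were lower and 4580 higher of 13800 under centring, and 3643 and 4043 of 13791 with the GC trend taken off.

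The changes in Huh7 followed the base composition of the genes. Over the 44 genes, the difference in Huh7 had a Spearman correlation of 0.74 with the GC content of the transcript, which runs from 37.7% to 65.0%, and over all genes of 0.62. In HepG2 the values were 0.35 and 0.04. These correlations are descriptions, since the genes share their libraries. The 19 genes that rose in Huh7 had a median GC content of 50.7% and the 9 that fell 41.0%. Whether this relation comes from the libraries or the cells was not tested. When the trend of each sample against GC content was taken off, 24 of the 44 genes rose and 9 fell in Huh7, against 4082 and 4008 of 12545 genes tested. No difference among the 44 genes was then beyond 1, and the correlation was 0.10. Of the 19 genes that rose, 17 still did (all but RFC2 and FEN1), and of the 9 that fell, ORC3, CDC7, DBF4, POLD3, POLE2 and RFC1 still did. A further 7 were called higher (ORC2, CDC6, GINS1, POLA1, PRIM1, PRIM2 and RFC3) and 3 lower (POLA2, POLE and CHAF1A). The sign turned for 13 genes, of which PRIM1, PRIM2, RFC3, POLA2, POLE and CHAF1A were called after the turn. All 6 MCM ring subunits remained higher, from 0.47 (MCM3) to 0.83 (MCM5), and ORC3 remained the lowest at -0.85. In HepG2, 31 rose and 1 fell, against 1857 and 2071 of 11756 genes tested. The HepG2 differences of ORC2 (-0.03), ORC4 (-0.04), PRIM2 (-0.04) and POLD2 (-0.0036), none of them called, turned in sign.

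**Figure D4:**
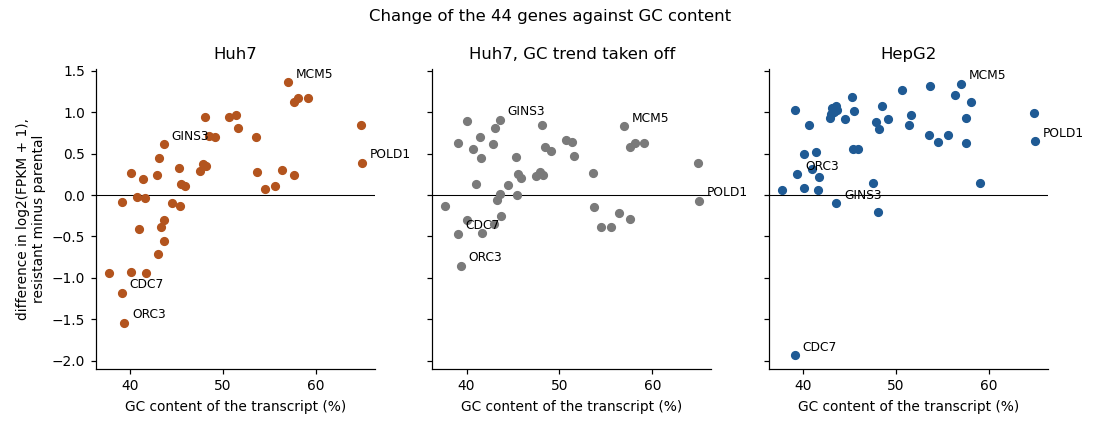
Difference in log2(FPKM + 1) between resistant and parental samples against the GC content of the transcript (%), 1 point for each of the 44 genes, for Huh7 as deposited (left), Huh7 with the GC trend of each sample taken off (middle) and HepG2 as deposited (right). The slope seen in Huh7 (Spearman 0.74) is near absent after the trend is taken off (0.10), and MCM5 stays high and ORC3 low in both.

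The scaling of the libraries moved the balance of calls over all genes. Of all calls in HepG2, 58.0% were higher as deposited, 47.5% after upper quartile scaling, 43.5% after median ratio scaling, 41.1% after centring and 47.3% with the GC trend taken off. Centring moved the median of all genes from 0.12 to 0.01 in HepG2 and from -0.04 to 0.10 in Huh7. The count of the 44 genes that rose in HepG2 was 30, 30, 29, 25 and 31 in the same order, with CDC7 the only gene to fall each time. Over all genes, 1366, 1085, 992 and 914 of 11762 rose in that order, and 1857 of 11756 with the GC trend taken off.

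The E2F letters shown above were found in 15 of the 25 genes with a window that rose in HepG2, in 3 of the 12 that did not pass the test there (ORC3, GINS1 and GINS3), and in CDC7, which fell. In Huh7 they were found in 8 of 15 genes that rose, 3 of 8 that fell and 8 of 15 that did neither. CDC7 fell with matches in both orientations near its start, and ORC1 rose without one.

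Other genes of the same processes were taken as lists. Over all genes tested, the shares that rose and fell were 11.6% and 8.43% in HepG2, and 32.7% and 37.4% in Huh7. Of 28 other replication factors, 10 rose and 0 fell among 24 tested in HepG2, where 14 missed the test. In Huh7, 8 rose and 10 fell among 25 tested, close to the shares over all genes. The HepG2 count of 10 was 5 without resistant replicate 3, 6 without parental replicate 1 and 6 without the filter on low values. CHAF1B, the partner of CHAF1A, rose in both lines (1.24 ± 0.10 in Huh7, 1.11 ± 0.17 in HepG2), as did RECQL4, a helicase needed for initiation (0.60 ± 0.17 and 1.27 ± 0.30). The Huh7 call of RECQL4 was lost with the GC trend taken off (0.15, adjusted p = 0.16) and its HepG2 call without resistant replicate 2 or 3 or parental replicate 1 or 2 (highest adjusted p 0.0791). Of 22 G1/S regulators, 7 rose and 1 fell in HepG2, and 9 rose and 5 fell among 21 tested in Huh7. The HepG2 rises numbered 2 without resistant replicate 3 and 4 without parental replicate 1, the single HepG2 fall became 2 under the scalings, in limma-voom or the fit of all 12 samples and 3 with the GC trend taken off, and the 5 Huh7 falls became 3 with the GC trend taken off. The gene that fell in HepG2 was CDKN1B, the inhibitor of cyclin-dependent kinases p27 (-0.93 ± 0.13, adjusted p = 0.00297), named here after its value was seen. Also named after their values were seen, E2F1, CCNE1 and CDK2 rose in both lines, while RBL1 and E2F7 fell in Huh7 and rose in HepG2. For E2F1 the differences were 0.88 ± 0.15 in Huh7 (adjusted p = 0.000947) and 0.83 ± 0.18 in HepG2 (adjusted p = 0.0146). E2F2, an activating E2F factor, rose in Huh7 from a mean of 3.89 to 13.5 FPKM (1.56 ± 0.13, adjusted p = 4.07e-05), with 1.03 the lowest difference among the alternatives. In HepG2 it read -0.29 ± 0.17 (adjusted p = 0.256) and was called lower with the GC trend taken off (-0.40, adjusted p = 0.0114). CDC25A, the phosphatase that activates CDK2, rose in Huh7 (1.20 ± 0.11, adjusted p = 6.34e-05) and read 0.35 ± 0.19 in HepG2 (adjusted p = 0.228).

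Of 9 genes for the supply of deoxynucleotides, 6 rose and 2 fell in Huh7 (32.7% and 37.4% of all genes tested). In HepG2, 5 rose and 0 fell (11.6% and 8.43% of all genes tested). The HepG2 count of 5 was 2 without resistant replicate 3, 3 without resistant replicate 2 or parental replicate 1 or 3, and 3 without the filter, after median ratio scaling or on centring, and the 2 Huh7 falls became 1 with the GC trend taken off. CTPS1, which makes CTP, rose in both (0.80 ± 0.11 and 0.94 ± 0.19), and RRM2B, the p53-inducible subunit of ribonucleotide reductase, fell in Huh7 (-0.93 ± 0.14), a call lost with the GC trend taken off (-0.04, adjusted p = 0.64). Of the genes of mitosis, 3 of 24 tested rose in HepG2 (CCNB1, KIF11 and MKI67) and 0 fell. The rises were close to the share over all genes tested, 11.6%. The median difference was 0.26, against 0.84 for the 44 replication genes. These 3 rises became 7 with the GC trend taken off and 6 in limma-voom or in the fit of all 12 samples. In Huh7, 11 mitosis genes rose and 12 fell among 24 tested, against 32.7% and 37.4% of all genes tested. Of the 3 that rose in HepG2, CCNB1 also rose in Huh7 as deposited (0.71 ± 0.12, adjusted p = 0.000908). The other genes, MKI67 (-0.46 ± 0.09, adjusted p = 0.00224) and KIF11 (-1.12 ± 0.13, adjusted p = 0.000147), fell there. PLK1, a kinase of mitotic entry, rose in Huh7 from 12.1 to 36.2 FPKM (1.51 ± 0.14, adjusted p = 5.39e-05), with 0.98 the lowest difference among the alternatives. CENPE, a kinetochore motor, fell there from 8.15 to 2.38 FPKM (-1.35 ± 0.31, adjusted p = 0.00427), a call lost with the GC trend taken off (-0.40, adjusted p = 0.209). In HepG2, PLK1 read 0.03 ± 0.20 and CENPE -0.13 ± 0.18, and neither passed the test.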

How the data were processed

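RNA-seq values of 12 samples were analysed, 3 in each of 4 groups (Huh7 or HepG2, resistant or parental) taken from the labels. Per the labels, RNA was extracted with the RNeasy Mini Plus kit (the paper's methods name TRIzol) and libraries were made with the NEBNext Ultra RNA kit. The submitters' processing notes name GRCh38 and bcl2fastq; the aligner, the counting tool and the use of strand are not given in the sources used here. The authors deposited 1 value per gene and sample without a stated unit. These deposited values are taken as FPKM, although RPKM cannot be told apart: multiplied by exon length (GENCODE release 29), 99.6% of the values of single-exon genes fall within 0.05 of whole reads, for 12290222 to 19285994 reads per sample. This depth was inferred and covers counting error only.

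Genes that reached 1 FPKM in 3 or more samples of a fit were tested with limma 3.58.1 (R 4.3.3) on log2(FPKM + 1), with a variance trend, in the 6 samples of each line (12554 and 11762 genes) and in all 12 samples (13800 genes) for comparisons between lines. Tests are two-sided, with Benjamini-Hochberg adjustment over all genes tested and a threshold of 0.05. All 44 genes passed the filter in each fit. The members and gene lists were chosen with earlier results of these data known. Values of every sample are given for genes beyond a log2 difference of 1 within a line or in the interaction, the 3 highest and 3 lowest, PCNA and MCM2. For other lists, at most 4 called genes with the largest change are described. A few more are named after their values were seen. The GC trend was a lowess curve (span 0.3) of each sample's difference from the gene mean. Alternatives were a pseudocount of 0.1, no filter, 3 scalings, the GC trend taken off, no variance trend, limma-voom on reads, a replicate block, all 12 samples in one fit and leaving out each sample. On simulated data with 100 genes changed at each size, 56% of genes changed by 0.7 and 92% by 1.5 were recovered in Huh7, and 19% and 86% in HepG2. Unchanged genes were called 3 times in Huh7 and 5 times in HepG2. Far fewer genes were changed there than were called in the data, which makes the adjustment stricter. These shares therefore do not measure the power of the reported tests. Python 3.11.15 was used with numpy 2.4.6 and pandas 2.3.3.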

Additional observations from a re-analysis of the deposited data

Results flagged for a closer look

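For 29 of the 44 genes the change with resistance differed between the lines, by the interaction of cell line and resistance (limma, 12 samples, adjusted p under 0.05). Values are the change in Huh7 minus the change in HepG2 on the log2(FPKM + 1) scale. The change was lower in Huh7 by more than 1 for ORC3 (-1.80), POLD3 (-1.69), POLE2 (-1.58), DBF4 (-1.43), MCM10 (-1.39), GMNN (-1.37), RFC1 (-1.16), RFC3 (-1.11), RFC5 (-1.02), FEN1 (-1.02) and ORC4 (-1.01). It was lower by less than 1 for LIG1 (-0.90), CDC6 (-0.88), PRIM1 (-0.87), PCNA (-0.86), ORC5 (-0.73), POLA1 (-0.69), CHAF1A (-0.68), RFC4 (-0.68), POLE (-0.61), MCM6 (-0.59), POLA2 (-0.57), GINS4 (-0.51), RPA3 (-0.45) and RPA1 (-0.44). It was higher in Huh7 for RPA2 (1.15), POLD2 (1.04), CDC7 (0.74) and GINS3 (0.71).

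The genes with a value below -1 do not share a single pattern within the lines. POLD3, POLE2 and MCM10 fell in Huh7 and rose in HepG2. ORC3, ORC4, DBF4 and RFC1 fell in Huh7 and did not pass the test in HepG2. GMNN, RFC3 and RFC5 rose in HepG2 and did not pass it in Huh7, and FEN1 rose in both. With the GC trend taken off, the Huh7 calls of MCM10, ORC4 and FEN1 were lost (-0.06, -0.13 and -0.15), and RFC3 was called higher there (0.63). Of the 29 calls of the interaction, 23 were kept and none turned in sign. The sizes moved. ORC3 (-1.02), POLD3 (-1.26), POLE2 (-1.20) and FEN1 (-1.31) stayed below -1, and LIG1 (-1.25) and CHAF1A (-1.04) passed it. MCM10 and GMNN (both -0.98), RFC5 (-0.71), DBF4 (-0.70), RFC1 (-0.60) and RFC3 (-0.30) did not. ORC4 (-0.12, adjusted p = 0.542) was no longer called. Among the higher genes, CDC7 read 1.55, RPA2 1.17, GINS3 1.09 and POLD2 0.69. No explanation was tested.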

How the results depend on the processing

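Requiring a log2 difference beyond 1 left 4 higher and 2 lower genes in Huh7 and 12 higher genes in HepG2. Under the other alternatives, the numbers of the 44 genes that rose or fell within a line stayed within 1.5 times of the reported ones. Between lines, the 25 lower genes of the interaction became 16 on centring, and the 1 gene lower in parental Huh7 became 3 under upper quartile, median ratio and centring, 4 with the GC trend taken off (with or without the replicate block) and 2 without resistant Huh7 replicate 2, parental Huh7 replicate 3 or parental HepG2 replicate 2. Counts of the other lists moved further and are given beside them. Leaving out 1 library gave 13 to 21 higher and 7 to 10 lower genes in Huh7, 22 to 29 higher and 1 to 1 lower in HepG2, 25 to 30 genes whose change differed between lines, and 33 to 38 and 23 to 28 genes that differed between parental and between resistant lines. The reported fits treated the samples as unpaired. Deviations of same-numbered samples correlated at 0.08, 0.06 and -0.23 in Huh7, where 1 of 3 resistant samples correlated best with its own number. In HepG2 the correlations were 0.25, 0.44 and -0.01, and 2 of 3 resistant samples correlated best with their own number. Whether same-numbered samples of HepG2 are paired is therefore not settled. With the replicate block, 17 genes rose and 9 fell in Huh7, 32 rose and 1 fell in HepG2, and 28, 36 and 26 were called in the interaction, the parental and the resistant lines. The 3 mitosis genes that rose in HepG2 became 8. Over all genes in HepG2 the block moved the calls from 1366 higher and 991 lower to 2111 and 1307.

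Some differences changed sign, and the cause was not tested. In HepG2, ORC4 read -0.0099 after upper quartile scaling, -0.04 after median ratio scaling, -0.05 after centring, -0.04 with the GC trend taken off, with or without the replicate block, and -0.14 to 0.23 with 1 library left out (-0.14 and -0.07 without resistant replicate 1 and parental replicate 2). POLD2 read -0.0036 with the GC trend taken off, with or without the block, and -0.02 to 0.33 with 1 library left out (-0.02 without resistant replicate 2). PLK1 read -0.05, -0.08, -0.08 and -0.08 under upper quartile, median ratio, centring and GC (the last with or without the block), and -0.11 to 0.18 with 1 library left out (-0.11, -0.07 and -0.02 without resistant replicate 2 and parental replicates 1 and 3). In Huh7 with the GC trend taken off, with or without the block, GMNN read 0.01, RFC3 0.63, RFC5 0.12, FEN1 -0.15 and LIG1 -0.22. Without the block, signs also turned for ORC5 (0.13), POLD1 (-0.07), RFC4 (near 0) and, as called genes, PRIM1 (0.56), PRIM2 (0.45), POLA2 (-0.39), POLE (-0.39) and CHAF1A (-0.29). On centring, RFC3 read 0.05 and RFC5 0.04. RPA2, with 47 to 310 reads a sample, had the least depth.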
